A study of Mus musculus with 10 samples.

Results

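Brain tissue dissected as cortex can carry some cells of the structures that touch it. Here 8 genes known as markers of such neighbours were read in every cortex library: Ttr and Folr1 for the choroid plexus, Ppp1r1b, Adora2a, Rgs9, Pde10a and Gpr6 for the striatum, and C1ql2 for the granule cells of the dentate gyrus. The genes were chosen by name, and all 8 were present among the 24972 genes of the deposited gene tables. The study sequenced total RNA of cortices from male mice of the C57BL/6 strain, 2.5 months old and perfused with ice-cold PBS before dissection. Of these mice 5 had the genotype Atad3 nKO and 5 were control littermates (genotype Atad3 control), with 1 library per mouse. What nKO stands for is not given in the labels, which also name no driver line, deleted exon, further allele or treatment. Replicate numbers only name the libraries.

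The choroid plexus is a secretory epithelium in the ventricles that makes cerebrospinal fluid. It makes and secretes transthyretin, the product of Ttr, in very large amounts, and moves folate into the fluid through the folate receptor encoded by Folr1. The striatum lies beneath the cortex and consists mainly of medium spiny neurons, which read dopamine, adenosine and glutamate through cyclic nucleotides. Ppp1r1b encodes DARPP-32, which inhibits protein phosphatase 1 once protein kinase A has phosphorylated it. Pde10a encodes a phosphodiesterase that degrades cAMP and cGMP, Rgs9 a protein that speeds the shut-off of G protein signals, Adora2a the striatal adenosine receptor, and Gpr6 an orphan receptor. Adora2a and Gpr6 mark the medium spiny neurons of the indirect pathway, which also carry the dopamine receptor Drd2. C1ql2 encodes a secreted C1q-like protein of the mossy fibre synapse made by dentate granule cells. Several striatal markers, Ppp1r1b among them, are also transcribed in cortical neurons.

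For Rgs9, Pde10a and Ppp1r1b the deposited transcript tables separate forms that code for different proteins, and the coding bases that tell these forms apart are shown because the levels below are given by form. The sequences are from GENCODE M21 on GRCm38 (the assembly of mm10) and read 5′ to 3′ on the strand of the gene. The 2 Rgs9 forms share their first 466 codons. The form with 675 codons is the striatal one, RGS9-2, and the form with 484 codons has the length of the retinal one, RGS9-1. The capitals mark the bases after the point where they part, at coding bases 1369 to 1458 of the long form and 1369 to 1452 of the short form.
Rgs9 NM_011268: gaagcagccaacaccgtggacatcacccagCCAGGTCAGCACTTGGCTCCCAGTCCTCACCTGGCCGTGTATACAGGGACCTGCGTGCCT
Rgs9 NM_001165934: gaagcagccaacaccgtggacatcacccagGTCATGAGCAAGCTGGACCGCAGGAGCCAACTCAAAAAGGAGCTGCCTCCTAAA
The 2 main Pde10a forms have different 5′ ends and share their last 773 codons. The capitals mark the bases that are not shared, at coding bases 161 to 259 of the form with 850 codons and 1 to 97 of the form with 796 codons.
Pde10a NM_001290707: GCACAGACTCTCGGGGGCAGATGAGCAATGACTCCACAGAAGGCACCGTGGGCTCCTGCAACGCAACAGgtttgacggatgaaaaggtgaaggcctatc
Pde10a NM_011866: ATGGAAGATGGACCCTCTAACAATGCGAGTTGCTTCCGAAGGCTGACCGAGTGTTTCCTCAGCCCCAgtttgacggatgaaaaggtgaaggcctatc
The long Ppp1r1b form, with 194 codons, holds the site that protein kinase A phosphorylates, the threonine of codon 34. The capitals mark the codons of the motif around it in coding bases 1 to 120. The short form, with 158 codons, starts downstream of the site and lacks the first 36 codons. Its coding bases 1 to 30 are shown.
Ppp1r1b NM_144828: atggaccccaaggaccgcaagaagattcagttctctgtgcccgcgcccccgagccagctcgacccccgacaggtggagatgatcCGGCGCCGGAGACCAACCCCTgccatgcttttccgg
Ppp1r1b NM_001313970: atgcttttccgggtctcagagcactcctca

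The libraries held 14812639 to 24161361 estimated counts. Atad3a, the targeted gene, lay between 22.2 and 26.6 CPM (counts scaled to a common library total) in the controls and between 8.95 and 14.4 in the nKO libraries. Cortical genes were high in all libraries: Slc17a7, the vesicular glutamate transporter of cortical projection neurons, was at 588 TPM (a level per transcript length) on average, with a range of 482 to 690. The cortical transcription factor gene Tbr1 was at 29.4 ± 4.16 TPM (SD, n = 5) for controls and 46.0 ± 7.97 (SD, n = 5) for nKO, with an edgeR log2 fold change of 0.57 and an adjusted p of 0.820. Over 14378 genes tested, 2 passed an adjusted p of 0.05 in edgeR's quasi-likelihood test, Atad3a and Fam155a, both lower in nKO, and 812 had an unadjusted p below 0.05. Along the first principal component of all genes, which held 33.6% of the variance, control 1 (score -46.8) and nKO 4 (score 29.8) lay at opposite ends.

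Of the 8 genes, Ppp1r1b, Pde10a and Rgs9 were well detected and the others had few counts. By mean TPM over the 10 libraries the order was Ppp1r1b at 93.1, Pde10a at 26.4, Rgs9 at 8.20, Gpr6 at 2.46, C1ql2 at 1.31, Adora2a at 1.12, Ttr at 0.883 and Folr1 at 0.346. The ranges of the first 4 genes in this order did not touch: Ppp1r1b spanned 80.3 to 109 TPM, Pde10a 19.0 to 38.3, Rgs9 7.02 to 11.4 and Gpr6 1.30 to 4.35. From Gpr6 to Folr1 the ranges of neighbours overlapped, so the ranges alone do not separate genes next to each other there. Gpr6 lay wholly above Folr1, which spanned 0 to 0.720 TPM, and was above Adora2a in every library. Among all genes listed, Ppp1r1b ranked 2369 by mean TPM and Folr1 15640, and 14385 genes had a mean of at least 1 TPM.

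**Figure D1:**
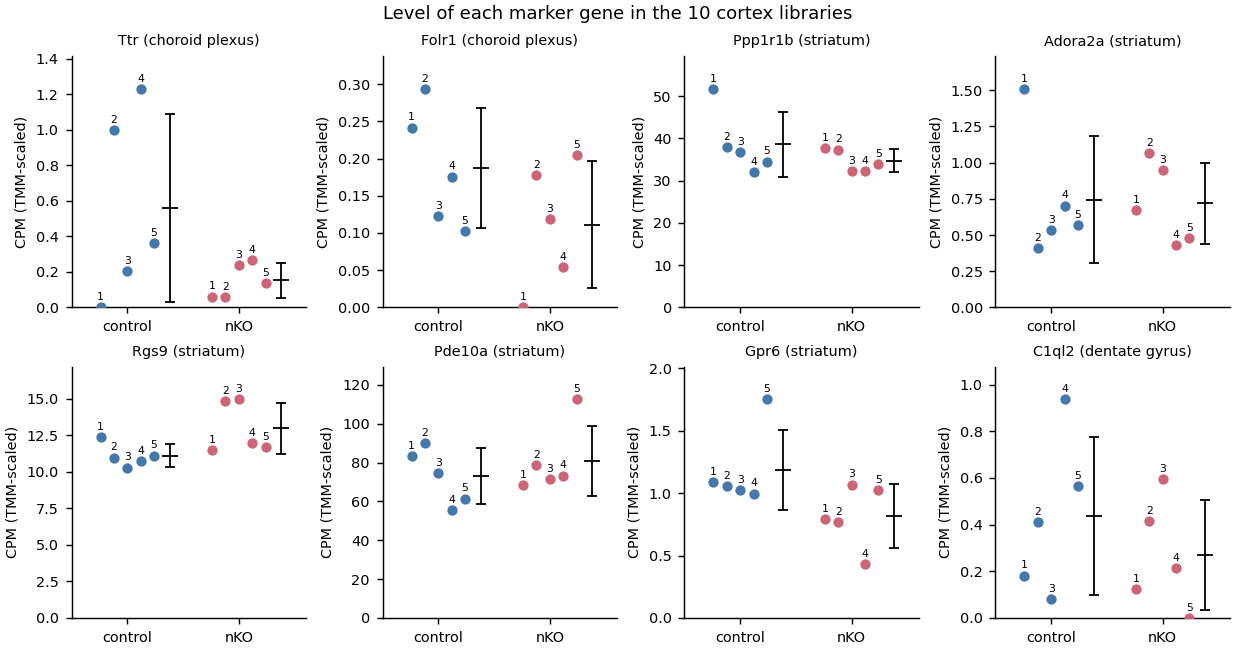
CPM (TMM-scaled, linear axes from 0) of each of the 8 genes in the 5 control (blue) and 5 nKO (red) libraries, with replicate numbers above the points and the mean ± SD in black. The groups overlap for every gene. Ttr reaches 1.23 CPM in control 4 and 0.998 in control 2, while no nKO library exceeds 0.268.

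Ttr, which the choroid plexus expresses at very high levels, was counted 63 times in all 10 libraries together. The counts were 0, 17, 5, 21 and 7 in control libraries 1 to 5, and 1, 1, 4, 5 and 2 in nKO libraries 1 to 5. As CPM these were 0, 0.998, 0.205, 1.23 and 0.360 in the controls and 0.0610, 0.0592, 0.237, 0.268 and 0.137 in nKO. Controls 2, 4 and 5 lay above every nKO library, control 3 lay within the nKO range, and control 1 had no count, so the groups overlapped. The 0 in control 1 lay under a floor of 0.181 CPM, the level of 3 counts in that library. Exact 95% Poisson intervals cover counting error only. They were 13.0 to 32.1 for the 21 counts of control 4 and 9.90 to 27.2 for the 17 of control 2. Both lay above 3.69 counts, the upper limit of this interval for the 0 of control 1. Controls thus differed among themselves by more than counting error.

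The group means of Ttr were 0.559 ± 0.529 CPM (SD, n = 5) for controls and 0.152 ± 0.0973 (SD, n = 5) for nKO. A two-sided permutation test, exact over 252 ways to regroup the libraries, gave p = 0.159. Ttr was below the count filter of the edgeR fit and therefore has no value there. In bulk tissue, fewer cells of a type and less RNA per cell cannot be told apart. Ttr lies at chr18:20664209-20674326.

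Folr1, the other choroid plexus gene, was scarcer, with 26 counts in all. The controls held 4, 5, 3, 3 and 2 counts and the nKO libraries 0, 3, 2, 1 and 3. The means were 0.187 ± 0.0801 CPM (SD, n = 5) for controls and 0.111 ± 0.0851 (SD, n = 5) for nKO, and the groups overlapped (exact two-sided permutation p = 0.183). Its coefficient of variation over the 10 libraries, 58.8%, was no larger than the 62.0% that counting alone gives at its mean count, whereas Ttr varied by 117% against 39.8% from counting. The library with most Ttr, control 4, held 3 counts of Folr1. Folr1 lies at chr7:101858331-101870788.

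The other choroid plexus genes ranged from scarce to abundant. Of 26 listed genes 25 names were found, and 9 stayed under 10 counts in every library. Among these, Otx2, a transcription factor of the epithelium, had 0 to 4 counts, the tight junction gene Cldn2 0 to 3, the bicarbonate transporter gene Slc4a5 0 to 3, and the potassium channel subunit gene Kcne2 0 to 1. The highest by mean TPM were Enpp2 at 236, Cab39l at 31.6, Igf2 at 24.8 and Col9a3 at 7.96. Listed genes between these extremes included Kcnj13, with 38 to 125 counts per library, and Lbp, with 10 to 39. Enpp2 encodes autotaxin, which oligodendrocytes also make, and Igf2 is also made by meninges and vessels. The summed level of the list ran from 338 to 431 CPM in controls and from 405 to 461 in nKO, most of it Enpp2, with means of 291 and 321 CPM.

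Of the 12 choroid plexus list genes that passed the count filter, 5 had higher and 7 lower values in nKO, with a median log2 fold change of -0.03 beside -0.01 over all genes tested, and 0 passed 5% (1 had an unadjusted p below 0.05 in edgeR). Over all genes tested, 47.8% had higher values in nKO. Kl, which encodes klotho, had the smallest p of the list, with 2.28 ± 0.724 CPM (SD, n = 5) for controls and 3.32 ± 0.764 (SD, n = 5) for nKO, a log2 fold change of 0.56 (SE 0.26) and an adjusted p of 0.820 (edgeR).

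**Figure D2:**
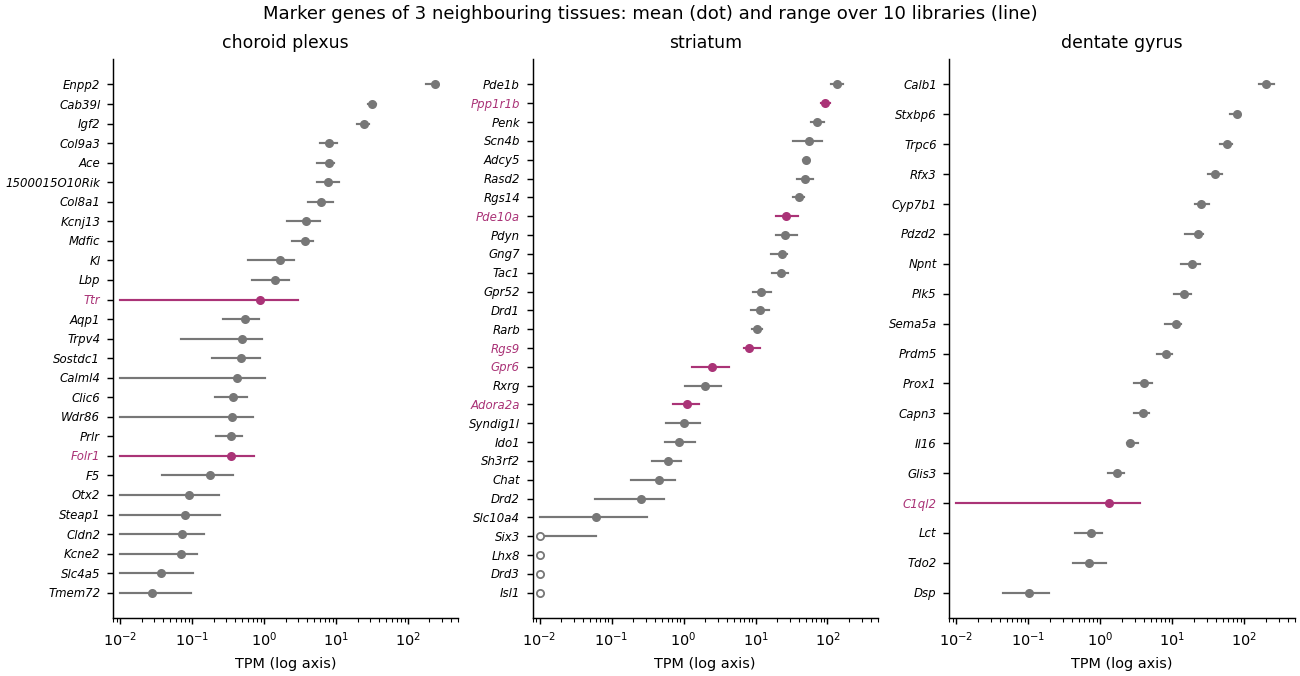
Mean TPM over the 10 libraries (dots) and range (lines) on a log axis for the 8 genes (magenta) and other listed markers (grey) of each tissue, with 1 striatal list gene not drawn. Values under 0.01 TPM are drawn at 0.01, with open dots where the mean is under it. Ttr and Folr1 lie below 1 TPM on average, while Ppp1r1b is second among the striatal genes.

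Of the 5 striatal genes, Ppp1r1b was the highest. It held 51.7, 37.9, 36.8, 32.0 and 34.5 CPM in control libraries 1 to 5, and 37.7, 37.3, 32.2, 32.3 and 34.0 in nKO libraries 1 to 5. Control 1 stood above the other 9 libraries, which lay between 32.0 and 37.9. The means were 38.6 ± 7.69 (SD, n = 5) for controls and 34.7 ± 2.67 (SD, n = 5) for nKO, with a log2 fold change of -0.15 (SE 0.12, 95% interval -0.41 to 0.11) and an edgeR adjusted p of 0.860. Without control 1 the log2 fold change was -0.02, and with Ttr as a covariate it was -0.29 (SE 0.092, adjusted p = 0.191). Ppp1r1b lies at chr11:98348406-98357796.

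The high value of control 1 held for Ppp1r1b in CPM and not in TPM, where control 1 had 80.9 against 82.7 to 105 in the other controls. The TPM means were 91.8 for controls and 94.4 for nKO, the other direction from CPM. TPM divides by an effective length estimated by the authors' quantification in each library. For the long Ppp1r1b form that length was 1590 bases in control 1, 791 in nKO 4 and 939 to 1096 in the other 8 libraries. Control 1 and nKO 4 are the libraries at the ends of the first principal component. The part of these lengths in the result was not tested.

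The long Ppp1r1b form, which holds the phosphorylation site shown above, took 97.6% of the reads of the gene. The short form was given reads in 3 of 10 libraries, at 11.1% of the gene in control 1, 4.84% in nKO 3 and 7.62% in nKO 5. It was at 0 in the other 7.

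Pde10a was at 83.5, 90.0, 74.7, 55.7 and 61.4 CPM in the controls and at 68.4, 78.6, 71.4, 73.3 and 113 in nKO. The high nKO library was nKO 5, and the other 4 lay within the range of the controls. The means were 73.1 ± 14.4 (SD, n = 5) for controls and 80.8 ± 18.1 (SD, n = 5) for nKO, with a log2 fold change of 0.15 (SE 0.16, 95% interval -0.20 to 0.49) and an edgeR adjusted p of 0.890. Without nKO 5 the log2 fold change was -0.0029. Pde10a lies at chr17:8525187-8986648.

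The form of Pde10a with 850 codons took 76.5% of the reads of the gene over all libraries and the form with 796 codons 19.2%. In nKO 5 the long form was at 36.8 TPM and the 796-codon form at 0. Among the other 9 libraries the long form ran from 13.9 to 24.8 TPM, and the 796-codon form reached 11.0 TPM in control 2. The forms were thus not divided alike in all libraries. Since they share most of their coding sequence, the division rests on the reads over the parts that differ.

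**Figure D3:**
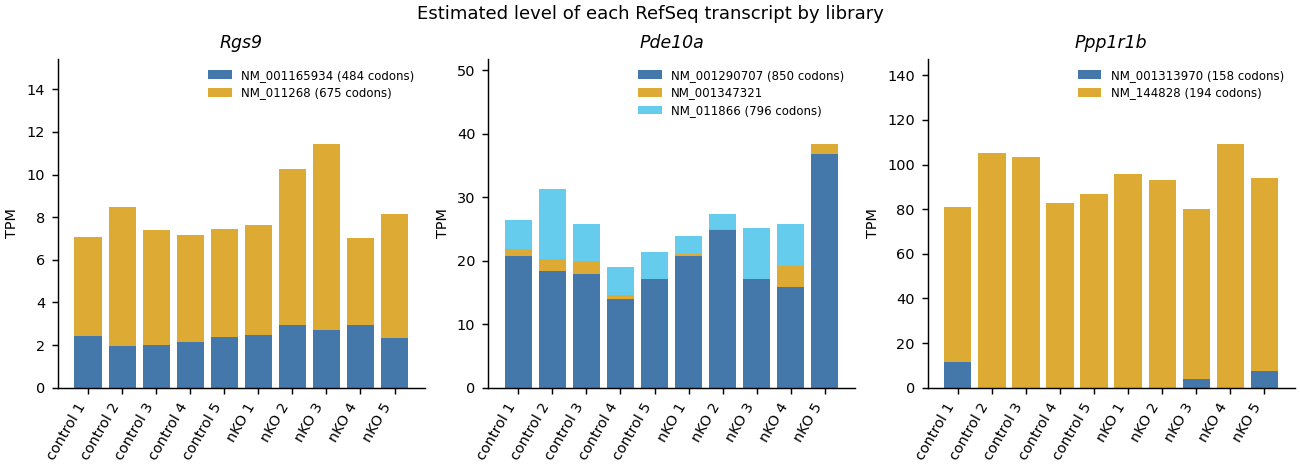
Estimated TPM of each RefSeq transcript of Rgs9, Pde10a and Ppp1r1b in the 10 libraries, stacked to the total of the gene, with codon counts where the coding sequence was matched. In nKO 5 the 850-codon form of Pde10a stands at 36.8 TPM with none of the 796-codon form, and both Rgs9 forms are present in every library.

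Rgs9 had a coefficient of variation of 13.5% over the 10 libraries in CPM and 18.2% in TPM. For Ppp1r1b these were 15.8% and 11.2%, and 7.14% in CPM without control 1. Its values were 12.4, 11.0, 10.3, 10.7 and 11.1 CPM in the controls and 11.5, 14.8, 15.0, 11.9 and 11.7 in nKO. Libraries nKO 2 and nKO 3 were above all others, and the remaining nKO libraries lay among the controls. The means were 11.1 ± 0.785 (SD, n = 5) for controls and 13.0 ± 1.76 (SD, n = 5) for nKO, with a log2 fold change of 0.23 (SE 0.11, 95% interval -0.01 to 0.47) and an edgeR adjusted p of 0.820. Rgs9 lies at chr11:109225348-109298181.

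The striatal form of Rgs9, with 675 codons, was at 5.32 ± 0.704 TPM (SD, n = 5) for controls and 6.21 ± 1.83 (SD, n = 5) for nKO. The 484-codon form was at 2.18 ± 0.212 and 2.69 ± 0.280. The longer transcript of the 484-codon form, 7629 bases against 2486, took 62.5% of the reads, while per length the striatal form was the higher in all 10 libraries. In nKO 4 the striatal form had its lowest level, 4.06 TPM, and in nKO 3 its highest, 8.73.

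Adora2a was near the limit of the count filter, with 25, 7, 13, 12 and 11 counts in the controls and 11, 18, 16, 8 and 7 in nKO. Control 1 was the highest at 1.51 CPM, and the other controls lay between 0.411 and 0.702. The means were 0.744 ± 0.440 CPM (SD, n = 5) for controls and 0.719 ± 0.282 (SD, n = 5) for nKO. With a log2 fold change of -0.02 (SE 0.39, 95% interval -0.86 to 0.81), its edgeR adjusted p was 0.996, and the fold change was 0.38 without control 1. The TPM means were 1.07 for controls and 1.17 for nKO. Adora2a lies at chr10:75316877-75334792. The share of its reads given to either of 2 transcripts ran from 0 to 100% between libraries, so no form is described.

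Gpr6 held 18, 18, 25, 17 and 34 counts in the controls and 13, 13, 18, 8 and 15 in nKO. In CPM the controls were at 1.09, 1.06, 1.03, 0.995 and 1.75 and the nKO libraries at 0.793, 0.769, 1.07, 0.429 and 1.03. In CPM, libraries nKO 3 and nKO 5 reached into the control range, and nKO 1, nKO 2 and nKO 4 lay below it. In TPM the lowest control was control 1 at 1.77. There nKO 1 (1.97) and nKO 2 (1.87) lay within the control range, and only nKO 4 (1.30) lay below it. The CPM means were 1.18 ± 0.319 for controls and 0.817 ± 0.255 for nKO (SD, n = 5 each). Its log2 fold change of -0.55 (SE 0.27, 95% interval -1.14 to 0.04) was the largest in size among the tested members, with an edgeR adjusted p of 0.820, and was -0.36 without control 5. Gpr6 lies at chr10:41069977-41072290.

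C1ql2, the dentate granule cell gene, held 62 counts in all: 3, 7, 2, 16 and 11 in the controls and 2, 7, 10, 4 and 0 in nKO. Control 4 was the highest at 0.937 CPM. The 0 in nKO 5 lay under a floor of 0.205 CPM, the level of 3 counts in that library. The means were 0.435 ± 0.339 CPM (SD, n = 5) for controls and 0.269 ± 0.236 (SD, n = 5) for nKO, and the groups overlapped (exact two-sided permutation p = 0.413). Its spread over the 10 libraries was 82.1%, against 40.2% from counting. C1ql2 lies at chr1:120340582-120343174.

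Across the 8 genes, 5 passed the count filter (the striatal ones), of which 2 had higher and 3 lower values in nKO with a median log2 fold change of -0.02. By mean TPM, 4 were higher and 1, Gpr6, was lower, since Ppp1r1b and Adora2a turn direction with the scale. Of these 5, 0 passed an adjusted p of 0.05, beside 0.0139% of all genes tested, and 0 had an unadjusted p below 0.05 (edgeR). DESeq2 also called 0 of them. Of all 8 genes, 0 had groups that did not overlap in CPM, beside 1.38% of all genes tested. The 95% intervals of Ppp1r1b, Rgs9 and Pde10a leave room for log2 changes from -0.41 to 0.49, and those of Adora2a and Gpr6 for changes from -1.14 to 0.81.

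**Figure D4:**
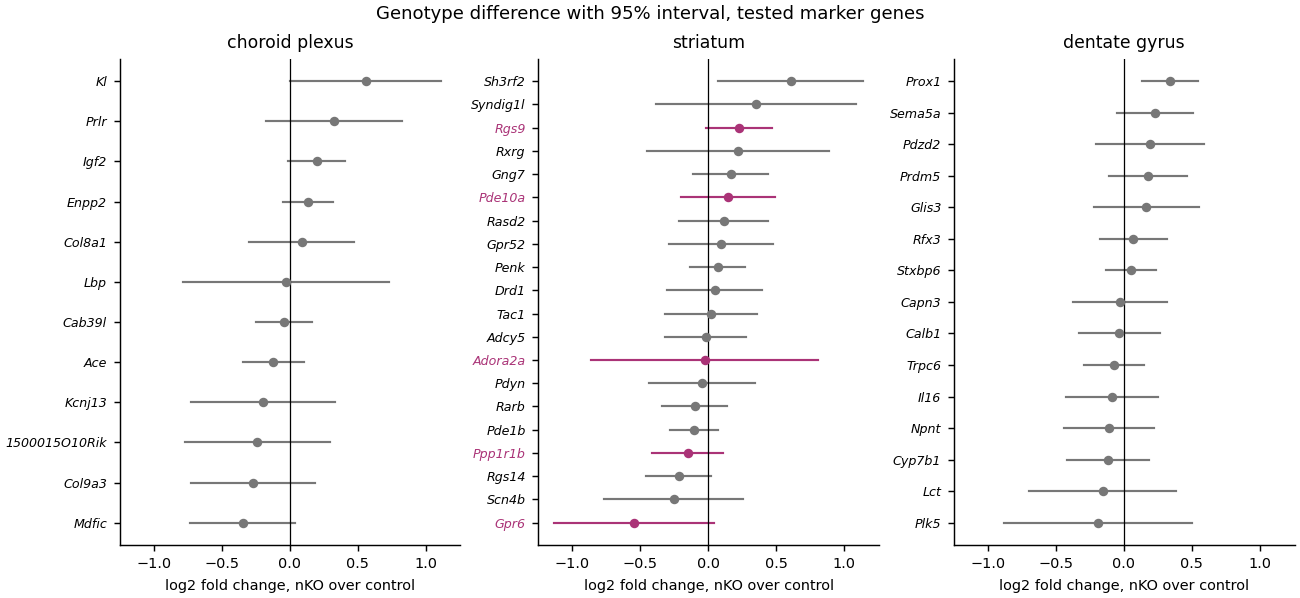
Log2 fold change (nKO over control) with its 95% interval from edgeR for the tested striatal genes among the 8 (magenta) and tested listed markers (grey) of 3 tissues, with 1 striatal list gene not drawn. The intervals of all 5 magenta genes include 0, and Adora2a has the widest of them, -0.86 to 0.81.

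The other striatal markers were also split by level. Of 24 listed genes 3 had no count in any library (Isl1, Drd3 and Lhx8), and 6 stayed under 10 counts everywhere. Drd2, the dopamine receptor of the indirect pathway, had 1 to 8 counts per library, whereas Drd1, the receptor of the direct pathway, had 172 to 404. Among the highest by mean TPM were Pde1b at 134, Penk at 71.5 and Scn4b at 55.6. Pde1b and Penk are also expressed by cortical neurons. The summed level of the list ran from 529 to 683 CPM in controls and from 538 to 612 in nKO.

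Of the 16 striatal list genes tested, 10 had higher and 6 lower values in nKO, with a median log2 fold change of 0.06, and 0 passed 5% (1 had an unadjusted p below 0.05 in edgeR). Sh3rf2 had the smallest p, at 0.888 ± 0.266 CPM (SD, n = 5) for controls and 1.34 ± 0.311 (SD, n = 5) for nKO, a log2 fold change of 0.61 (SE 0.25) and an edgeR adjusted p of 0.820.

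Of the 17 genes of the dentate list, 0 stayed under 10 counts in every library, but Dsp (3 to 12 counts) and Tdo2 (4 to 14) were as scarce as C1ql2. Calb1 (201 TPM), Stxbp6 (78.6), Trpc6 (57.2) and Rfx3 (38.9) were the highest, and Calb1, a calcium buffer, is also a gene of cortical neurons. Of 15 tested genes 7 had higher and 8 lower values in nKO, with a median log2 fold change of -0.03, and 0 passed 5% (1 had an unadjusted p below 0.05 in edgeR). Prox1, the transcription factor that keeps granule cell identity and that some cortical interneurons also carry, was at 9.54, 10.9, 10.7, 10.7 and 10.2 CPM in the controls and at 14.9, 13.3, 13.3, 12.3 and 12.2 in nKO. Every nKO library was above every control, with a log2 fold change of 0.34 (SE 0.096), but the edgeR adjusted p was 0.820. Prox1 had the smallest p of the list. It was the 1 gene of the 15 tested whose groups did not overlap in CPM, beside 1.38% of all genes tested. C1ql2, also of granule cells, had its higher mean in the controls.

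DESeq2 also called 0 genes of the choroid plexus, striatal and dentate lists. Lists for other tissue that a dissection could include gave 0 genes past 5% each in edgeR and in DESeq2, with 0 or 1 at an unadjusted p below 0.05 in edgeR: 10 tested genes of the hippocampal CA fields (5 higher and 5 lower), 6 ependymal (3 and 3), 15 meningeal (4 and 11), 11 thalamic (8 and 3), and 4 of septum, hypothalamus and olfactory bulb (3 and 1). The median log2 fold changes of these lists ran from -0.13 (meningeal) to 0.12 (septum, hypothalamus and olfactory bulb). Over all genes tested the median was -0.01, and 47.8% had higher values in nKO. Of the 12 listed ependymal genes 4 stayed under 10 counts in every library, among them Tmem212 with no count. The highest by mean TPM were Tm4sf1, with 164 to 334 counts per library, and Rarres2, with 18 to 65. The meningeal list summed to 541 to 860 CPM in controls and 526 to 706 in nKO, most of it Ptgds, with means of 502 and 434 CPM. Of 16 tested genes of the cortical reference list, 11 had higher and 5 lower values and 0 passed 5% in edgeR or DESeq2, with 2 at an unadjusted p below 0.05 in edgeR, Tbr1 (higher) and Lamp5 (lower).

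The 8 genes were also compared with one another across libraries. Over the 28 pairs of the 8 genes, Pearson correlations of log2 CPM across the 10 libraries ran from -0.70 to 0.61, and 0 passed 5% after Benjamini-Hochberg adjustment over the pairs (lowest adjusted p = 0.421, permutation test, 100000 resamples). The 10 pairs of striatal genes had a median r of 0.13, with 7 positive, and the 17 pairs from different tissues a median of 0.16, with 11 positive. The choroid plexus pair Ttr and Folr1 had r = 0.24 (permutation p = 0.504, adjusted p = 0.822) and a Spearman rho of -0.09 (permutation p = 0.810). Without controls 2 and 4 its r was -0.27.

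The closest striatal pair was Adora2a and Rgs9, with r = 0.61 (permutation p = 0.0608, adjusted p = 0.421), rho = 0.50 (permutation p = 0.142) and r = 0.58 without control 1 and nKO 2. With the mean of each genotype removed its r was 0.77 (permutation p = 0.0104, not adjusted). On log2(TPM + 0.1) its r was 0.40 (permutation p = 0.248, not adjusted). With 1 library left out, r for this pair ranged from 0.51 to 0.74. Ppp1r1b and Adora2a had r = 0.59 (permutation p = 0.0691, adjusted p = 0.421) and rho = 0.09 (permutation p = 0.812). Its r was -0.033 without control 1 and 0.04 without controls 1 and 4, so the value rests on control 1. On log2(TPM + 0.1), over all 10 libraries, r was -0.68 (permutation p = 0.0352, not adjusted). Across tissues, Ttr and C1ql2 had r = 0.57 (permutation p = 0.0869, adjusted p = 0.421), rho = 0.55 (permutation p = 0.104) and r = 0.29 without controls 2 and 4. Control 4 had the highest level of both genes. Pde10a and C1ql2 had r = -0.70 (permutation p = 0.0240, adjusted p = 0.421), rho = -0.60 (permutation p = 0.0732) and r = -0.12 without control 4 and nKO 5.

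**Figure D5:**
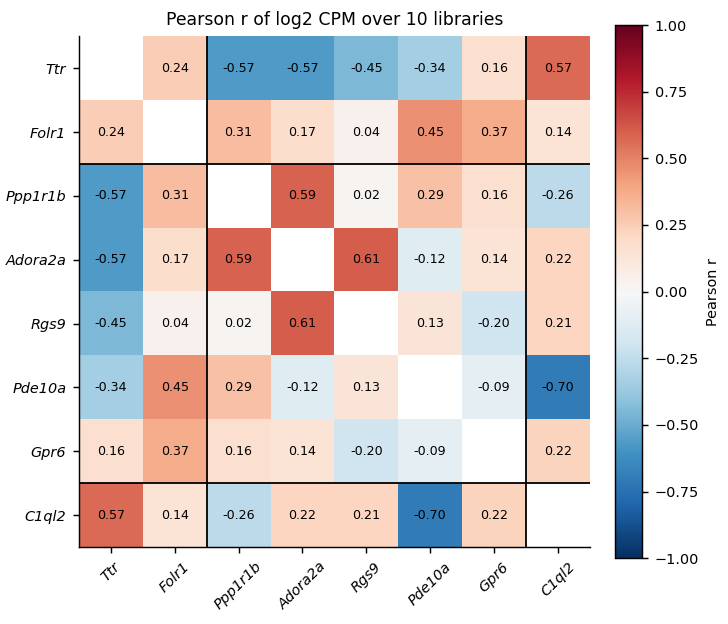
Pearson r of log2 CPM over the 10 libraries for each pair of the 8 genes, with lines between the choroid plexus, striatal and dentate genes. The striatal block spans -0.20 to 0.61, and the lowest value of the whole matrix, -0.70, is between Pde10a and C1ql2.

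The genes whose levels were most like each striatal gene over the 10 libraries were sought among tested genes with a mean of at least 1 CPM. Of the 8 genes, 5 have a lower mean and could not appear, and Ppp1r1b, Rgs9 and Pde10a were not among the first 5 of any striatal gene. The first 5 for Ppp1r1b were Erp29, Kirrel2, Fam19a5, Tada3 and St3gal5 (r from 0.95 to 0.94). For Adora2a they were Elfn1, Nphp4, D8Ertd738e, Ptpru and Cers1 (0.97 to 0.95), and for Rgs9 they were Gtf3c2, Gm15881, Fa2h, Itpr2 and Ccdc167 (0.91 to 0.87). For Pde10a they were Tpm1, Ptk2, Il12a, Myo1e and Tmem178 (0.94 to 0.85), and for Gpr6 Hsd3b7, Uba7, Mmp14, Ptges and Ppm1m (0.93 to 0.91). With 10 libraries and 13726 or 13727 genes compared, these values are the top of a very long ranking and are given as a description. The likeness of Adora2a to Rgs9 ranked 2693 and to Ppp1r1b 2825. Over the 15 listed striatal genes compared with Adora2a, r ran from -0.46 to 0.91, with a median of 0.08 and 9 positive. The highest of these was Adcy5, the main adenylyl cyclase of the striatum, at rank 55.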

How the data were processed

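Per the submitters' processing notes, bcl2fastq, Salmon, DESeq2 and the build mm10 were used, with versions and roles not given in the sources used here. Stranded total RNA libraries were made after DNase treatment, per the labels' protocols. Per the file headers, the authors deposited estimated counts, TPM and effective lengths per gene and per RefSeq transcript for each library. The estimated counts divide reads among transcripts they could come from.

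Estimated counts were rounded, filtered by filterByExpr (minimum count 10, minimum total 15), scaled by TMM and tested for genotype in 1 fit over all 10 libraries with the quasi-likelihood test of edgeR 4.0.16 (R 4.3.3), adjusted by Benjamini-Hochberg over the tested genes at 5%. CPM are TMM-scaled, and log2 CPM used a prior count of 2. Members under the filter had an exact permutation test of mean CPM, which was added after seeing the data. Alternatives were DESeq2 1.42.0, its size factors, library size alone, no filter, transcript sums, 2 covariates, other scales and libraries left out. Tests were checked on simulated data.

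The lowest chi-square per degree of freedom between replicates was 4.08, so no 2 libraries of a group agreed within sampling noise. TPM means and spreads without control 1 were added after seeing the data. The labels give no pairing or batch, so there is no within-batch value; running numbers in the titles are lower in controls, so order and genotype cannot be told apart. Each library was 1 animal, as the labels call the 5 per group biological replicates. Gene positions are from RefSeq GRCm38.p6 and coding sequences from GENCODE M21.

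The members and marker lists were chosen with earlier results of these data known. Beside all members, the text names for each tissue list up to 4 genes with the highest mean TPM and up to 2 with the smallest p, and the 5 genes most like each tested member. Markers near 0 and Drd1, Adcy5, Fam155a, Kcnj13 and Lbp were named after their values were seen. Some list genes that the rule would name are not reported here, and they remain in the counts and sums of their lists.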

Additional observations from a re-analysis of the deposited data

Results flagged for a closer look

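In 3 of 16 groups of 5 libraries, 1 library lay far from the others by Dixon's criterion (gap over range above 0.71), which chance alone meets in about 5% of groups. Adora2a in control 1, at 1.51 CPM, was the highest control (gap over range 0.735). Pde10a in nKO 5, at 113 CPM, was the highest nKO library (0.769). Gpr6 in control 5, at 1.75 CPM, was the highest control (0.878). The criterion was applied to CPM and not to TPM. In TPM, Adora2a in control 1 was at 1.66 (next control 1.14) and Gpr6 in control 5 at 4.35 (next control 2.80). Pde10a in nKO 5 was at 38.3 TPM (next nKO library 27.3).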

How the results depend on the processing

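The count of members past 5% was 0 under every alternative run, and the count of genes past 5%, 2 in the reported fit, was 5 with the DESeq2 Wald test (3 of them higher), 4 with Ttr as a covariate, and 2 to 3 with 1 library left out. Over 277 alternatives, 246 were unchanged and 24 changed sign, all for values that passed no threshold in the reported fit. Of 85 log2 fold changes, 80 kept direction and side of the 5% threshold on adjusted p. Of 156 correlations, 132 kept direction and side of an unadjusted permutation p of 0.05, and 5 kept direction but moved below it. These cover only the 10 striatal pairs, Ttr with Folr1, and Ttr with C1ql2. The other pairs had no such alternatives. Among them is Pde10a with C1ql2, whose unadjusted permutation p was 0.0240. Of 36 counts, 34 were unchanged, with 2 to 3 genes past 5% taken as the same, and 2 moved. With the mean of the striatal members as a covariate, those members were left out of the member count. Ttr, Folr1 and C1ql2 were under the filter in that fit. Its count of 0 members, 1 of the unchanged counts, was therefore fixed in advance. The log2 fold change of Adora2a ran from -0.22 to 0.38 with 1 library left out and was 0.52 without control 1 and nKO 4 (chosen after seeing the data), and that of Pde10a ran from -0.0029 to 0.23. With log2(TPM + 0.1), r was -0.68 for Ppp1r1b and Adora2a, -0.24 for Ppp1r1b and Rgs9, -0.25 for Ppp1r1b and Gpr6, -0.34 for Adora2a and Gpr6, and 0.10 for Rgs9 and Gpr6. With genotype means removed, r was -0.053 for Ppp1r1b and Gpr6, -0.046 for Rgs9 and Pde10a, 0.27 for Rgs9 and Gpr6, and 0.084 for Pde10a and Gpr6. With 1 library left out, r ranged from -0.033 to 0.73 for Ppp1r1b and Adora2a, -0.13 to 0.27 for Ppp1r1b and Rgs9, -0.096 to 0.31 for Ppp1r1b and Gpr6, -0.34 to 0.11 for Adora2a and Pde10a, -0.23 to 0.30 for Adora2a and Gpr6, -0.038 to 0.25 for Rgs9 and Pde10a, and -0.20 to 0.19 for Pde10a and Gpr6. The cause of these sign changes was not tested. Counting limits Ttr, Folr1 and C1ql2, which held 26 to 63 counts in all. With no filter, edgeR gave Ttr a log2 fold change of -1.78 (SE 0.78, adjusted p = 0.821). No paired analysis was possible because the labels give no numbers shared between the groups.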
